A study of Mus musculus with 8 samples.

Results

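The vacuolar-type proton ATPase (V-ATPase) genes of mouse embryonic fibroblasts were followed through nutlin3a-induced senescence and through a change of medium pH. The set held 32 genes chosen by name: 10 genes of the membrane sector V0, 12 of the cytosolic sector V1, and 10 accessory, assembly and partner genes. All 32 were found among the 54838 gene rows of the deposited count tables. Polyadenylated RNA of embryonic fibroblasts, primary connective tissue cells of the mouse embryo, was sequenced in 8 libraries, 2 for each of 4 groups. Proliferating cells received no senescence treatment. The other 3 groups were senescent cells (n-Sen), made by arresting cells in G2 with RO3306, which inhibits CDK1, then 48 h of nutlin3a and 14 days of BI-2536 at 100 nM. Nutlin3a blocks MDM2 and so stabilises p53, and BI-2536 inhibits PLK1 and was used to remove cells that still divided. One n-Sen group was left as it was, 1 was kept for 24 h in HEPES-buffered medium of control pH (control medium), and 1 for 24 h in such medium made alkaline (alkaline medium). The sources used here do not give the pH values, strain, genotype or passage. All n-Sen groups shared the same inhibitors, so the comparison with proliferating cells covers RO3306, nutlin3a, BI-2536 and the time in culture together.

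The V-ATPase is a rotary machine that spends ATP to pump protons into lysosomes, endosomes and the Golgi, and in some specialised cells out across the plasma membrane. V1 hydrolyses ATP and turns a central stalk, and the stalk turns a ring of proteolipid subunits in V0 that carries protons past subunit a. V0 is put together in the endoplasmic reticulum with dedicated assembly factors, V1 joins it in a reversible step, and the same machine is a platform for amino acid sensing at the lysosome. In senescent cells an enlarged lysosomal compartment is a familiar trait.

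Total counts ran from 40608517 to 54183060 per library. The labels do not say that the 2 libraries of a group came from separate cultures, so p-values measure only the spread between these libraries, which may be technical. No library looked like a repeat of its group partner: chi-square values of the count pairs ran from 4.63 to 7.39 per degree of freedom. Levels are given as CPM, the count of a gene scaled to a common library size after TMM scaling, and differences as log2 fold changes ± standard error from edgeR's quasi-likelihood test. A gene is said to have risen or fallen where the adjusted p (Benjamini-Hochberg over all genes tested) was under 0.05. Fibroblast markers summed over 14 genes to between 13060 and 20380 CPM, most of it from Col1a1, Col1a2 and Vim. Of the 14, 10 rose and 4 fell in n-Sen, Pdgfra from 87.9 ± 4.76 to 9.81 ± 1.28 CPM and Prrx1 from 570.4 ± 15.5 to 328 ± 14.7 CPM (SD, n = 2) among them, and 3 rose and 8 fell in alkaline medium. Over all genes tested, 34% rose and 33.1% fell in n-Sen, and 9.58% rose and 10.4% fell in alkaline medium. Lum and Fap were low in proliferating cells, at 0.587 ± 0.015 and 2.71 ± 0.782 CPM (SD, n = 2). Macrophage markers summed over 18 genes stood at 62.8 and 56.6 CPM in the proliferating libraries and between 1097 and 1306 CPM in the 6 n-Sen libraries. None of the 18 was at 0 in any group.

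In proliferating cells, 29 of the 32 genes were present at 0.1 CPM or more in each library. The highest levels per kilobase of exon belonged to Atp6v1g1, a stator subunit, with 92.8 CPM per kb, and to Atp6ap1, the accessory subunit Ac45, with 67.5 CPM per kb. Atp6v0c, which builds most of the proteolipid ring, followed with 53.8 CPM per kb and Atp6v0d1, the collar that joins the ring to the stalk, with 52.3 CPM per kb. The RAVE-like genes, whose products help V1 join V0, were low on the same scale, with 2.78 CPM per kb for Wdr7, 2.53 for Dmxl1 and 0.566 for Dmxl2. For 3 subunits the second paralog was nearly absent. Atp6v1e2 had 0 counts in all 8 libraries, which allows up to 0.00799 CPM over the 8 together by counting error alone. Atp6v1b1, the B isoform of kidney intercalated cells, had 4 counts in each proliferating library, 10 in control medium replicate 1 and 0 in the other 5. Atp6v0d2 had 0 counts in both proliferating libraries. Atp6v1e2 and Atp6v1b1 were too low to test in any comparison.

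**Figure D1:**
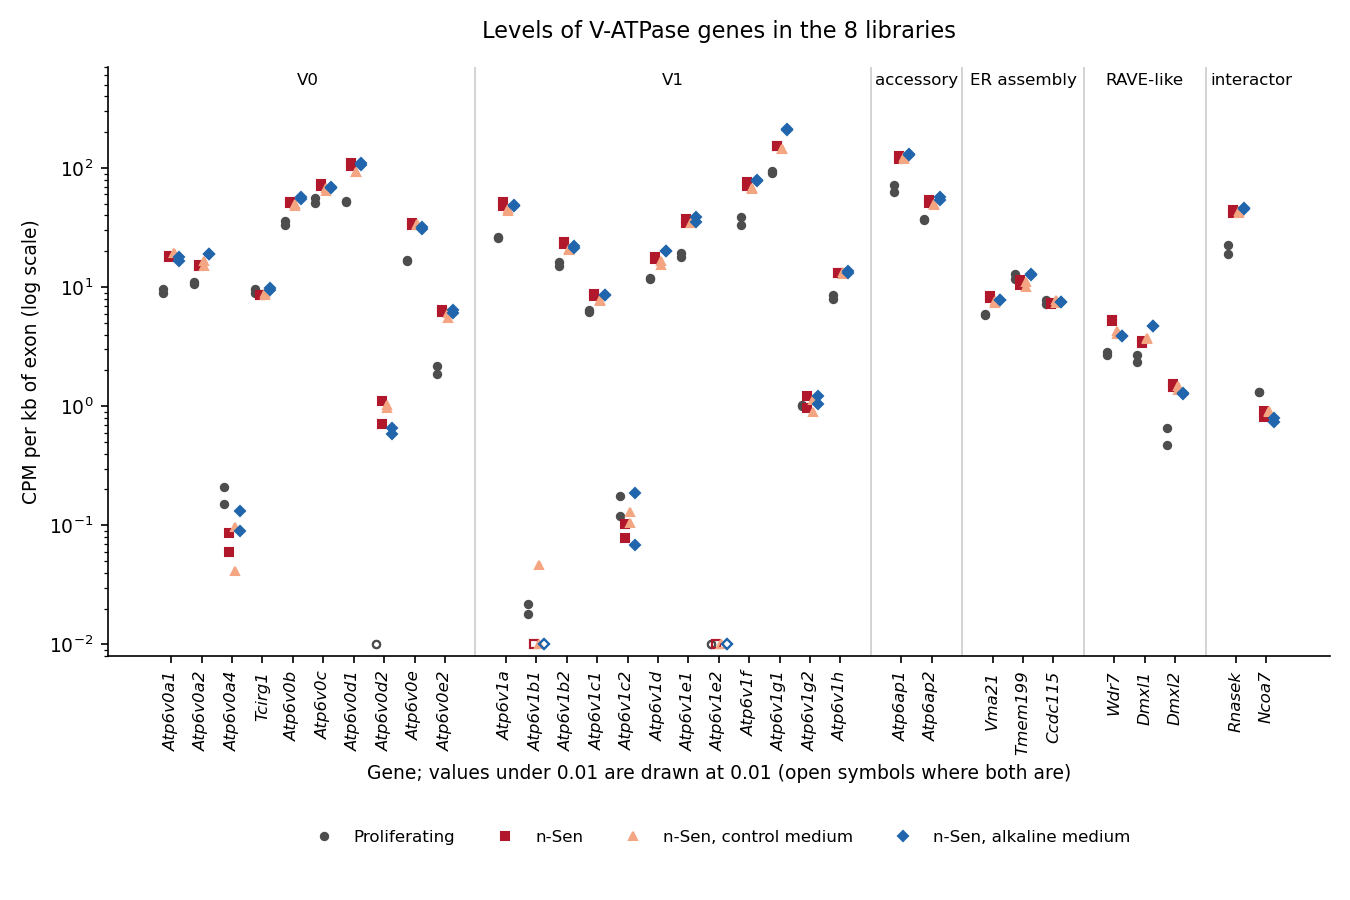
Level of each of the 32 genes in every library, in CPM per kilobase of exon on a log axis, with genes ordered by role and 1 symbol per library and group. Atp6v1g1 lies highest, from a mean of 92.8 CPM per kb in proliferating to 211.9 in alkaline libraries, while Atp6v0a4, Atp6v1b1, Atp6v1c2 and Atp6v1e2 lie near the bottom in every group.

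The first comparison asked how V-ATPase expression differs between n-Sen and proliferating cells. V-ATPase transcripts were higher in n-Sen cells in both sectors. Of the 30 genes tested, 23 rose, 2 fell and 5 did not pass the test, and 7 of the 23 rose at least 2-fold. Over all 19264 genes tested, 34% rose and 33.1% fell. The median log2 fold change of the 30 was 0.59, against 0.0015 over all genes tested. Summed over the 32 genes, the level went from 1774 and 1695 CPM in proliferating libraries to 2778 and 2894 CPM in n-Sen. For 28 of the 30 genes the n-Sen and proliferating libraries did not overlap, which held for 83.4% of all genes tested. Among the 23 the largest adjusted p was 4.42e-05 (edgeR's quasi-likelihood test, Benjamini-Hochberg). These are bulk libraries, in which more cells of a type and more RNA per cell cannot be told apart.

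In the V0 sector, 8 of 10 genes rose, and the median log2 fold change of the 10 was 0.78. Atp6v0d1 stood at 94.8 and 92.8 CPM in proliferating libraries and at 187 and 198 CPM in n-Sen, a log2 fold change of 1.04 ± 0.0559. Atp6v0e, a small subunit at the edge of V0, stood at 62.7 and 61.1 CPM against 123 and 128 CPM, a log2 fold change of 1.03 ± 0.0585. Its paralog Atp6v0e2 went from 5.21 and 4.46 CPM to 14.8 and 15.3 CPM, a log2 fold change of 1.65 ± 0.132. For all 3, both n-Sen libraries were above both proliferating ones by far more than the gap between replicates.

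The proteolipid genes rose by less. Atp6v0c stood at 191 and 173 CPM in proliferating libraries and at 239 and 249.7 CPM in n-Sen, a log2 fold change of 0.43 ± 0.0554. Atp6v0b, the second kind of ring subunit, stood at 73.6 and 67.6 CPM against 104 and 107 CPM, a log2 fold change of 0.58 ± 0.0609. The groups did not overlap for either gene. The near-identical pseudogene Atp6v0c-ps2 held between 843.5 and 1466 counts per library beside the 7951.44 to 13484.1 of Atp6v0c, and reads may be split between them.

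Subunit a, which forms the path of the protons and steers the pump to its membrane, has 4 isoforms that did not move alike. Atp6v0a1 stood at 63.0 and 58.6 CPM in proliferating libraries and at 121 and 117 CPM in n-Sen, a log2 fold change of 0.97 ± 0.0599. Atp6v0a2, the isoform best known from the Golgi and endosomes, stood at 71.7 and 74.1 CPM against 102 and 102 CPM, a log2 fold change of 0.49 ± 0.0584. Both rose with no overlap between groups. Tcirg1, the a3 isoform best known from osteoclasts and lysosomes, stood at 44.5 and 41.2 CPM against 39.3 and 39.4 CPM. Its log2 fold change of -0.12 ± 0.0736 did not pass the test (edgeR's quasi-likelihood test, adjusted p = 0.163). Atp6v0a4, an isoform of kidney and inner ear, was barely present at 0.744 and 1.03 CPM against 0.429 and 0.296 CPM. It fell, with a log2 fold change of -1.30 ± 0.481 (edgeR's quasi-likelihood test, adjusted p = 0.0242), on 16 to 52.5 counts per library. That call was lost without proliferating replicate 2 (adjusted p = 0.17), without n-Sen replicate 2 (adjusted p = 0.147) and with DESeq2 (adjusted p = 0.124).

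Atp6v0d2, a d isoform known from osteoclasts and macrophages, lies on chromosome 4 (mm10, chr4:19876841-19922605, minus strand). It had 0 counts in both proliferating libraries and stood at 1.93 and 2.98 CPM in n-Sen. Against a floor of 3 counts over the proliferating group, 0.0327 CPM, it was at least 75.2-fold higher in n-Sen. Even there it stayed far below Atp6v0d1, at 0.904 against 107.4 CPM per kb. Beside it, all 18 macrophage markers rose, against 34% of all genes tested, with a median log2 fold change of 4.24. Lyz2 went from 24.9 ± 3.62 to 731.5 ± 27.0 CPM (SD, n = 2) and Adgre1 from 1.16 ± 0.292 to 48.3 ± 1.54 CPM (SD, n = 2). Of 8 osteoclast markers, 5 could be tested and 2 rose, a share of 40% that is near the 34% of all genes tested. The 2 were Oscar (log2 fold change 2.05 ± 0.452, from 0.295 to 1.25 CPM) and Itgb3 (0.21 ± 0.0685). Dcstamp was at 0 in every group, and Acp5 stood at 0.397 ± 0.425 in proliferating and 0.655 ± 0.0166 CPM in n-Sen cells (SD, n = 2). The part of macrophage-marker cells in the V-ATPase levels was not tested.

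**Figure D2:**
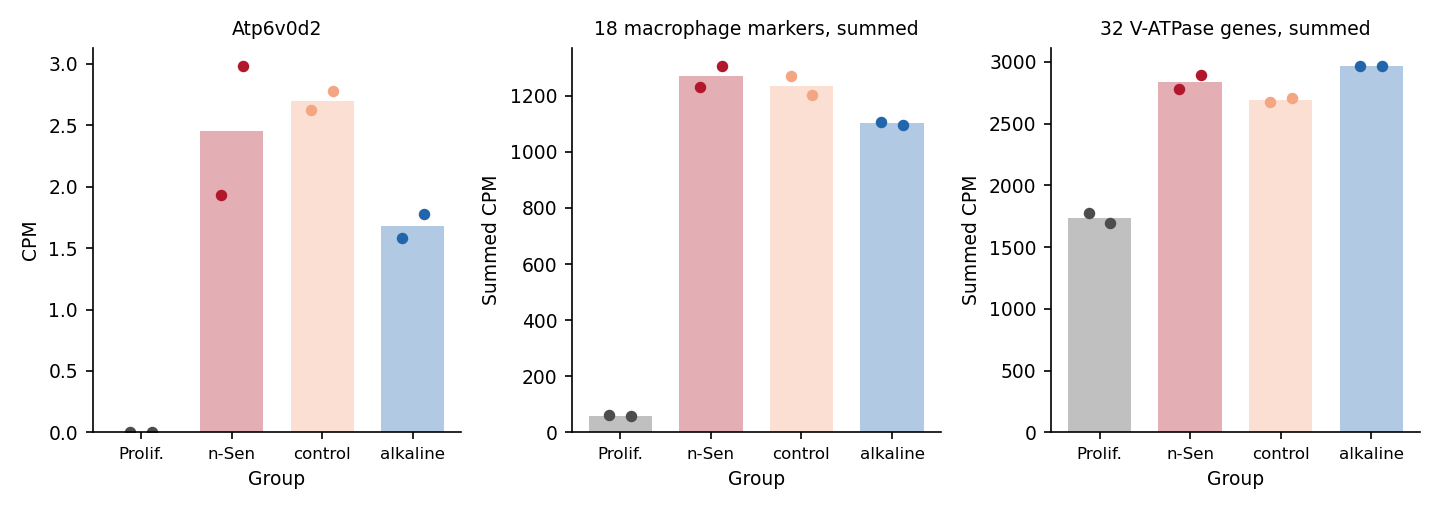
CPM of Atp6v0d2 and summed CPM of the 18 macrophage markers and of the 32 V-ATPase genes, with bars for the group mean and points for each of the 8 libraries. The proliferating libraries lie at 0 for Atp6v0d2, at 1774 and 1695 CPM for the V-ATPase genes and at 62.8 and 56.6 CPM for the markers, and the alkaline libraries have the highest V-ATPase sums of the n-Sen groups and the lowest marker sums.

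In the V1 sector, 8 of the 10 genes tested rose and 2 did not pass, with a median log2 fold change of 0.63. Atp6v1a, the catalytic subunit that hydrolyses ATP, stood at 157 and 159 CPM in proliferating libraries and at 289 and 316 CPM in n-Sen, a log2 fold change of 0.94 ± 0.0553. Its partner in the hexamer, Atp6v1b2, stood at 85.8 and 79.7 CPM against 122 and 127 CPM, a log2 fold change of 0.59 ± 0.0586. Both genes of the head rose, and the groups did not overlap for either. Atp6v1f and Atp6v1d belong to the turning stalk. Atp6v1f went from 40.9 and 35.3 CPM to 75.9 and 81.0 CPM, a log2 fold change of 1.05 ± 0.0756. Atp6v1d went from 54.2 and 55.3 CPM to 79.8 and 82.9 CPM, a log2 fold change of 0.57 ± 0.0628.

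The stator subunits hold the head still while the stalk turns. Atp6v1e1 stood at 80.0 and 73.1 CPM in proliferating libraries and at 142 and 153 CPM in n-Sen, a log2 fold change of 0.95 ± 0.0624. Atp6v1g1 stood at 104 and 107 CPM against 174 and 173 CPM, a log2 fold change of 0.72 ± 0.0535. E and G form paired rods in the stator, and both genes rose clear of the replicate gap. Atp6v1h, the regulatory subunit, stood at 84.1 and 77.2 CPM against 128 and 128 CPM, a log2 fold change of 0.67 ± 0.0584. Atp6v1c1, which is released when V1 leaves V0, rose least of the V1 genes that passed, from 36.3 and 34.5 CPM to 47.1 and 48.6 CPM, a log2 fold change of 0.44 ± 0.0729. The minor isoforms did not pass: Atp6v1g2, a neuronal isoform, lay between 2.44 and 3.09 CPM over both groups, and Atp6v1c2 between 0.172 and 0.384 CPM.

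Both accessory subunits rose. Atp6ap1 stood at 219 and 189 CPM in proliferating libraries and at 359 and 384 CPM in n-Sen, a log2 fold change of 0.87 ± 0.0617. Atp6ap2, also called the prorenin receptor, stood at 95 and 97.8 CPM against 133 and 142 CPM, a log2 fold change of 0.51 ± 0.0581. The gap between groups exceeded that between replicates for each. Rnasek, a small membrane protein bound to V0, went from 20.1 and 16.7 CPM to 39.4 and 37.4 CPM, a log2 fold change of 1.06 ± 0.0937.

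The factors that build V0 in the endoplasmic reticulum did not move as a group. Vma21 rose, from 42.6 and 43.4 CPM to 59.0 and 61.5 CPM, a log2 fold change of 0.49 ± 0.0682. Tmem199 stood at 24.6 and 22.1 CPM in proliferating libraries and at 19.6 and 21.8 CPM in n-Sen (log2 fold change -0.17 ± 0.0965), and did not pass. Ccdc115 stood at 18.3 and 19.8 CPM against 18.6 and 18.3 CPM (log2 fold change -0.05 ± 0.0975), with overlapping groups. So of these 3 factors 1 rose and 2 did not pass.

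All 3 RAVE-like genes rose. Wdr7 stood at 29.1 and 27.5 CPM in proliferating libraries and at 52.5 and 54.2 CPM in n-Sen, a log2 fold change of 0.92 ± 0.0744. Dmxl1 stood at 52.0 and 58.7 CPM against 77.2 and 74.0 CPM, a log2 fold change of 0.45 ± 0.0704. Dmxl2, its paralog known from synapses, went from 6.27 and 8.76 CPM to 19.2 and 20.5 CPM, a log2 fold change of 1.39 ± 0.139. The replicates of Dmxl2 in proliferating cells lay apart, yet both were below both n-Sen values. Of 6 neuronal markers, 4 could be tested. Of these 2 rose and 1 fell, while 34% of all genes tested rose and 33.1% fell. The summed level of the 6 was 34.9 and 33.9 CPM in proliferating libraries and 70.8 and 73.7 CPM in n-Sen. Most of the n-Sen sum was Tubb3 and Map2, with means of 57.6 and 14.2 CPM. Syp, Snap25, Rbfox3 and Syt1 had n-Sen means of at most 0.307 CPM. The part of these markers in Dmxl2 was not tested. Ncoa7, a protein with a TLDc domain that binds the V-ATPase, fell from 13.9 and 13.8 CPM to 8.55 and 9.72 CPM. Its log2 fold change was -0.60 ± 0.121 (edgeR's quasi-likelihood test, adjusted p = 3e-04).

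**Figure D3:**
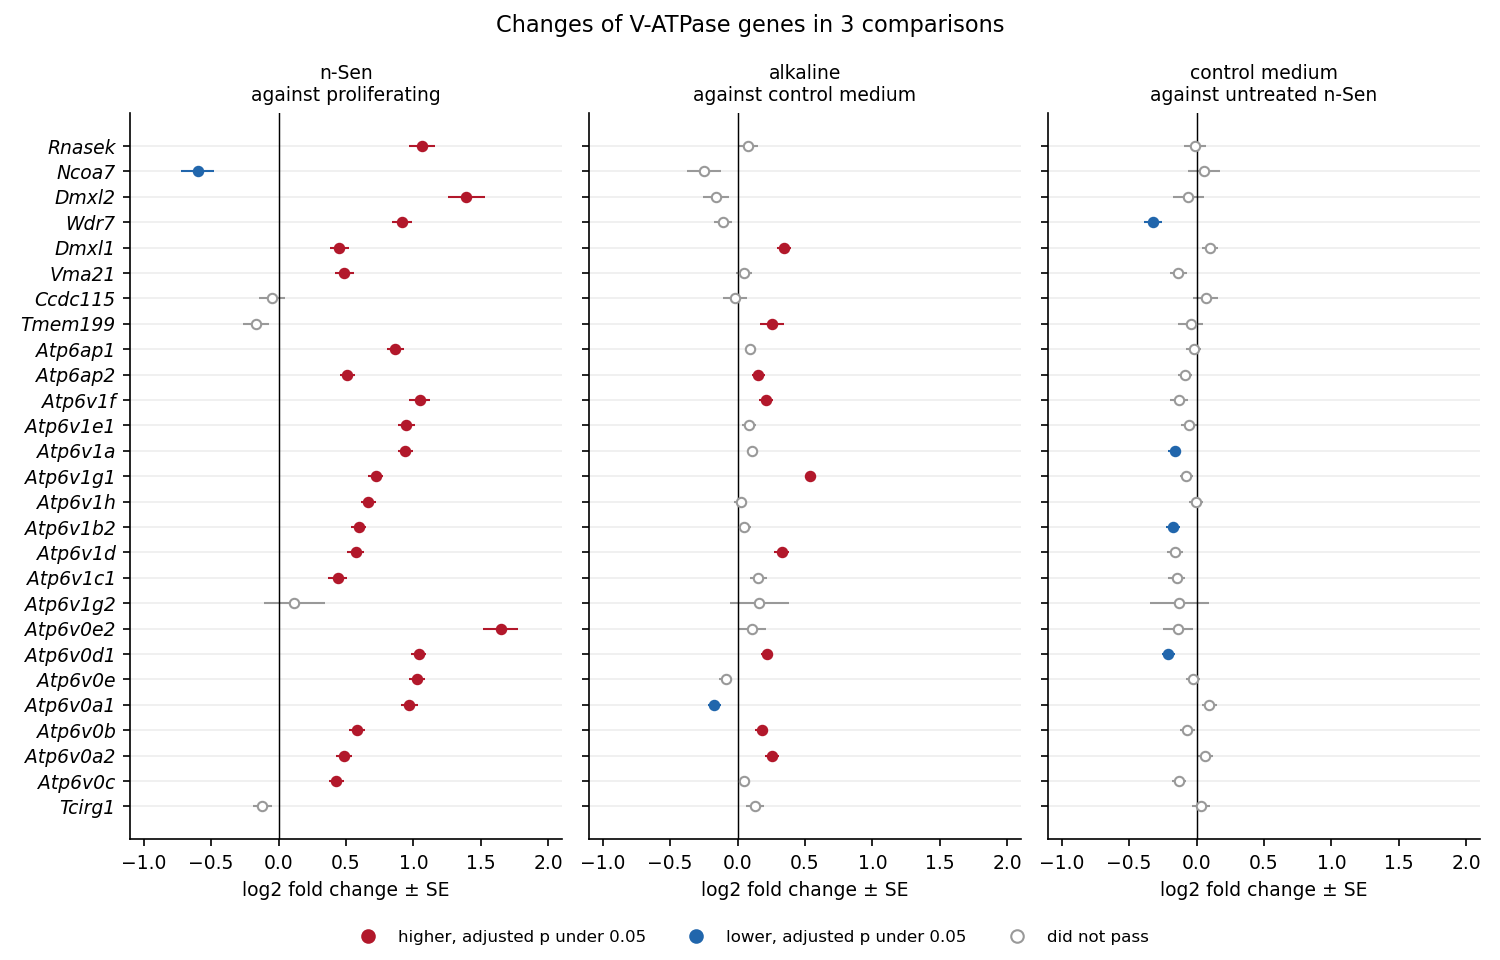
Log2 fold change with standard error of 27 genes, grouped by role, in n-Sen against proliferating cells, alkaline against control medium and control medium against untreated n-Sen, with filled points where the adjusted p was under 0.05; the 2 untested genes and the low Atp6v0d2, Atp6v1c2 and Atp6v0a4 are left out. Most values of the first comparison lie between 0.43 and 1.65, those of the second between -0.25 and 0.54, and the lowest of the third is Wdr7 at -0.33.

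Promoter letters were read for every V-ATPase gene with a RefSeq window, whether or not it changed. Genes of the lysosome, the V-ATPase among them, are known to carry the CLEAR element, a stretch around the E-box CACGTG that TFEB and related factors bind. RefSeq windows on GRCm38.p6, from 250 bases before to 50 after a start, were at hand for 23 of the 32 genes. The letters CACGTG were in a window of 6 of the 23 (26.1%), against 8.09% of 27025 genes in the same table. The longer TCACGTGA, which contains CACGTG, was in 4 of the 23 (17.4%), against 1.12% of all genes. A still longer form, with G before and C after TCACGTGA, was in 0 of the 23, against 0.37% of all genes. That share is too low for 23 genes to show a lack. Each motif reads the same on both strands. A match is a description of letters and not of binding. All 4 genes with TCACGTGA (Atp6v0d1, Atp6v0e, Atp6v1a and Vma21) rose in n-Sen cells, with a median log2 fold change of 0.98, and so did 10 of the 17 tested genes with a window that lacked it, with a median of 0.51. Of the 6 genes with CACGTG, 5 rose and Ccdc115 did not pass. In alkaline medium 1 of the 4 genes with TCACGTGA rose, with a median of 0.079 against 0.13 for the 17 without it. In control medium against untreated n-Sen 2 of the 4 fell, and the 17 without it did not pass. The 2 were Atp6v0d1 and Atp6v1a, and neither call held under every alternative run. Over all genes tested, 34% rose in n-Sen cells, 9.58% rose in alkaline medium and 4.96% fell in control medium against untreated n-Sen. Of the 4 promoters, 3 are shown because these genes rose by close to 2-fold and come from both sectors; each runs 5′ to 3′ on the gene's strand from 150 bases before to 30 after the start, with TCACGTGA in capitals.
Atp6v0d1, chr8:105566035-105566214, minus strand: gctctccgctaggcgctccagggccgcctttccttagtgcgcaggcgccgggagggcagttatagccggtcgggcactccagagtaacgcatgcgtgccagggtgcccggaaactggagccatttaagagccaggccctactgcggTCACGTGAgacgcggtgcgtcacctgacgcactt
Atp6v0e, chr17:26676246-26676425, plus strand: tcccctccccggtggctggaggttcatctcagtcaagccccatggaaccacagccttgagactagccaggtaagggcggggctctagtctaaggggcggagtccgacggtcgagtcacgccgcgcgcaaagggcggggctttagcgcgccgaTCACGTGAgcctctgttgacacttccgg
Atp6v1a, chr16:44139230-44139409, minus strand: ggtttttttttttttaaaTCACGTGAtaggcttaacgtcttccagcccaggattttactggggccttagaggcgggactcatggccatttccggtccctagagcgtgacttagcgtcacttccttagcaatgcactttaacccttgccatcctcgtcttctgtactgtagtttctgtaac
In Atp6v0d1 the motif begins 4 bases before the start, in Atp6v0e 2 bases after it and in Atp6v1a 132 bases before it.

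The second comparison asked what 24 h in alkaline medium did to n-Sen cells, against n-Sen cells in control medium. The changes were smaller and went both ways. Of the 30 genes tested, 9 rose, 2 fell and 19 did not pass. Over all 19129 genes tested, 9.58% rose and 10.4% fell. The median log2 fold change of the 30 was 0.11, against -0.0093 over all genes tested. Summed over the 32 genes, the level was 2675 and 2703 CPM in control medium and 2965 and 2962 CPM in alkaline medium. Over the same libraries the summed macrophage markers went from 1270 and 1202 CPM to 1107 and 1097 CPM, and 10 of the 18 fell. Their part in the V-ATPase values was not tested.

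Atp6v1g1 rose most. It lies on chromosome 4 (mm10, chr4:63544772-63550750, plus strand), and its level was 164 and 165 CPM in control medium and 242 and 239 CPM in alkaline medium. The log2 fold change was 0.54 ± 0.0439 (edgeR's quasi-likelihood test, adjusted p = 3.11e-09). Its group means per length, 144.9 and 211.9 CPM per kb, were the highest of the 32 genes in both media. Of the other V1 genes, Atp6v1d stood at 75.7 and 70.0 CPM in control and at 91.7 and 92.3 CPM in alkaline medium, a log2 fold change of 0.33 ± 0.0554. Atp6v1f stood at 72.8 and 70.4 CPM against 84.2 and 82.6 CPM, a log2 fold change of 0.21 ± 0.0544. So the risers of V1 were the turning stalk and 1 stator subunit.

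The remaining V1 genes did not pass, the catalytic head among them. Atp6v1a stood at 275 and 266 CPM in control and at 291 and 295 CPM in alkaline medium (log2 fold change 0.11 ± 0.0423). Its edgeR adjusted p was 0.0747, while DESeq2 gave an adjusted p of 0.0475. Atp6v1b2 stood at 109 and 112 CPM against 117 and 113 CPM (0.05 ± 0.0494 on the log2 scale). Atp6v1c1 stood at 43.6 and 42.9 CPM against 48.4 and 48.2 CPM (0.15 ± 0.0634). In all 3 both alkaline values lay above both control values, a separation seen for 56.7% of all genes tested. Atp6v1e1 stood at 142 and 141 CPM against 158 and 144 CPM, and Atp6v1h at 129.7 and 125 CPM against 128 and 133 CPM. Atp6v1g2 and Atp6v1c2 lay between 2.24 and 3.05 CPM and between 0.149 and 0.409 CPM in the 4 libraries.

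In V0, 3 genes rose and 2 fell. Atp6v0a2 stood at 101 and 112 CPM in control and at 127 and 129 CPM in alkaline medium, a log2 fold change of 0.26 ± 0.0531. Atp6v0d1 stood at 166 and 166 CPM against 197 and 191 CPM, a log2 fold change of 0.21 ± 0.0449. Atp6v0b stood at 98.4 and 102 CPM against 117 and 112 CPM, a log2 fold change of 0.18 ± 0.0509. None of these overlapped between groups, but the call for Atp6v0b was lost without control medium replicate 1 (adjusted p = 0.0769) and without alkaline medium replicate 1 (adjusted p = 0.15). Atp6v0a1, by contrast, stood at 128 and 126 CPM in control and at 108 and 118 CPM in alkaline medium. It fell, with a log2 fold change of -0.17 ± 0.051 (edgeR's quasi-likelihood test, adjusted p = 0.0182), and was no longer called without alkaline medium replicate 1 (adjusted p = 0.29). Atp6v0d2 stood at 2.63 and 2.77 CPM against 1.59 and 1.77 CPM, on 64 to 138 counts per library. It fell, with a log2 fold change of -0.69 ± 0.238 (edgeR's quasi-likelihood test, adjusted p = 0.0432). That call did not survive leaving out any 1 of the 4 libraries (adjusted p between 0.0606 and 0.155) or DESeq2 (adjusted p = 0.217). Among the macrophage markers that fell beside it, Adgre1 changed by -0.58 ± 0.0656 and Mrc1 by -1.43 ± 0.133 on the log2 scale.

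The other 5 genes of V0 did not pass. Tcirg1 stood at 39.3 and 41.3 CPM in control and at 43.3 and 45.1 CPM in alkaline medium, and Atp6v0c at 219 and 228 CPM against 235 and 230.4 CPM. Atp6v0e stood at 125 and 123 CPM against 119.7 and 115 CPM, lower in both alkaline libraries (log2 fold change -0.09 ± 0.0487). Atp6v0e2 stood at 13.1 and 14.3 CPM against 15.3 and 14.4 CPM. Atp6v0a4 lay between 0.205 and 0.659 CPM. Of these, Tcirg1, Atp6v0c and Atp6v0e2 were higher and Atp6v0e lower in both alkaline libraries than in either control library, and none passed.

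Outside the 2 sectors, 3 of 10 genes rose and 7 did not pass. Dmxl1 stood at 80.4 and 81.7 CPM in control and at 103 and 104 CPM in alkaline medium, a log2 fold change of 0.34 ± 0.0514. Its RAVE-like partners did not rise with it: Dmxl2 stood at 18.2 and 19.8 CPM against 16.9 and 17.3 CPM and Wdr7 at 43.7 and 41.4 CPM against 39.9 and 39.5 CPM, both lower in the alkaline libraries but short of the threshold. Tmem199 stood at 19.2 and 21.0 CPM against 23.9 and 24.4 CPM, a log2 fold change of 0.26 ± 0.0871. It is the 1 gene that rose here and did not pass against proliferating cells. Atp6ap2 stood at 127 and 131 CPM against 141 and 148 CPM, a log2 fold change of 0.15 ± 0.0483. Calls of the last 2 were fragile: Tmem199 passed with an edgeR adjusted p of 0.0408 and was lost without control medium replicate 1 (adjusted p = 0.263), without alkaline medium replicate 1 (0.0837) or replicate 2 (0.153) and with DESeq2 (0.128). Atp6ap2 was lost without control medium replicate 1 (adjusted p = 0.0968) and without alkaline medium replicate 2 (adjusted p = 0.276).

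Atp6ap1 stood at 358 and 374 CPM in control and at 386 and 400.2 CPM in alkaline medium (log2 fold change 0.10 ± 0.0423). It did not pass (edgeR's quasi-likelihood test, adjusted p = 0.124). Vma21 stood at 53.4 and 56.3 CPM against 57.5 and 56.6 CPM, Ccdc115 at 19.9 and 18.7 CPM against 19.1 and 19.2 CPM. Rnasek stood at 38.6 and 37.4 CPM against 40.7 and 40.2 CPM, and Ncoa7 at 9.40 and 9.63 CPM against 8.40 and 7.73 CPM. None of these 5 genes passed.

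**Figure D4:**
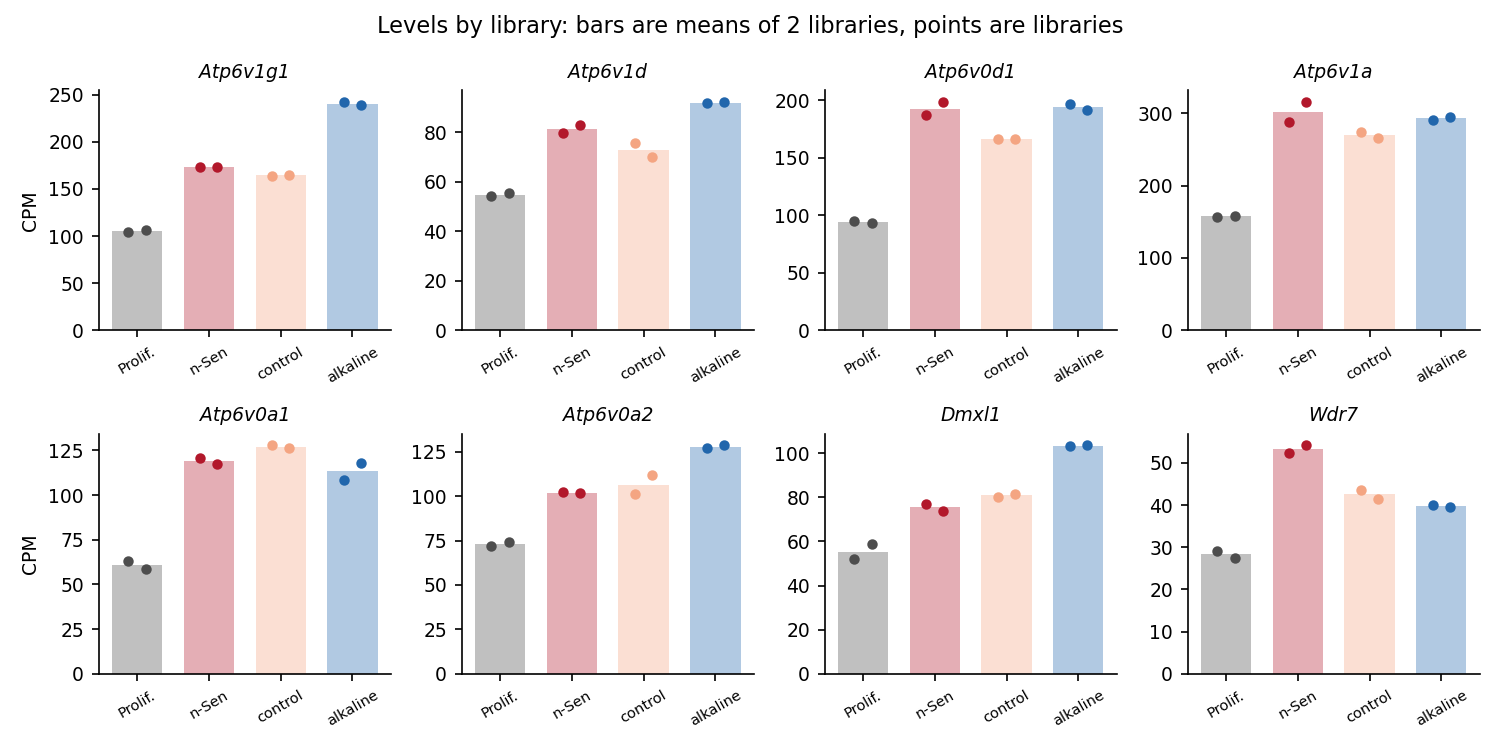
CPM of 8 genes by group, with bars for the mean of the 2 libraries and points for each library. Atp6v1g1 is highest in the 2 alkaline libraries at 242 and 239 CPM, and Atp6v0a1 is lower there, at 108 and 118 CPM, than in control medium.

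The 2 comparisons share no library. Of the 23 genes that rose in n-Sen cells, 8 also rose in alkaline against control medium, 2 (Atp6v0a1 and Atp6v0d2) fell and 13 did not pass. The baseline of the alkaline comparison was control medium and not untreated n-Sen. The 8 make up 8 of the 9 alkaline risers: Atp6ap2, Atp6v0a2, Atp6v0b, Atp6v0d1, Atp6v1d, Atp6v1f, Atp6v1g1 and Dmxl1. Of all 30 V-ATPase genes tested, 76.7% rose in n-Sen cells, so most alkaline risers would be among them anyway. This is a count of calls, and no test of the overlap was made.

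Control medium was also set against untreated n-Sen cells, to see what 24 h in buffered medium did on its own. The groups come from separate tables, and their libraries also serve in the 2 comparisons above. Here 4 of the 30 genes fell and 26 did not pass. Over all 20215 genes tested, 4.96% fell and 6.18% rose. No gene of the set rose by edgeR's quasi-likelihood test, 0 did at an unadjusted p under 0.05, and DESeq2 gave 0 as well. Wdr7 fell from 52.5 and 54.2 CPM in untreated cells to 43.7 and 41.4 CPM in control medium, a log2 fold change of -0.33 ± 0.0674. Atp6v0d1 fell from 187 and 198 CPM to 166 and 166 CPM, a log2 fold change of -0.21 ± 0.0485. Both were lower in each control medium library than in either untreated one. Such a gap, in either direction, was present in 17 of the 30, most of them not called, so it adds little to these calls. Its share over all genes tested was not counted. The head genes Atp6v1a (-0.16 ± 0.0482) and Atp6v1b2 (-0.17 ± 0.0534) fell on the log2 scale, with edgeR adjusted p of 0.0347 and 0.0392.

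Leaving out 1 library ended calls for all 4 of these genes. Wdr7 was lost without control medium replicate 2 (edgeR adjusted p = 0.0515). Atp6v0d1 was lost without n-Sen replicate 2 (0.118) or control medium replicate 1 (0.0507). Atp6v1a was lost without n-Sen replicate 2 (0.425), control medium replicate 1 (0.0832) or control medium replicate 2 (0.227). Atp6v1b2 was lost without any 1 of the 4 libraries, with adjusted p between 0.115 and 0.258. In alkaline medium Atp6v0d1 stood at 197 and 191 CPM, within the range of untreated n-Sen, while Wdr7 stood at 39.9 and 39.5 CPM, below it.

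Isoforms shared a subunit's total differently between groups. Shares were taken per kilobase of exon in each library and are given without a test. Among the a isoforms Atp6v0a1 took 32% and 30.7% in proliferating libraries, 43.6% and 43% in n-Sen, 45.2% and 42.8% in control medium, and in alkaline medium 36.8% and 38.3%. Tcirg1 took 32.1% and 30.8% in proliferating libraries and between 19.8% and 20.9% in the 6 n-Sen libraries. On this scale the 3 main isoforms were near equal in proliferating cells, with Atp6v0a2 at 35.4% and 37.8%, and Atp6v0a1 led in n-Sen cells and control medium. Without length scaling, the proliferating means were 60.84 CPM for Atp6v0a1, 72.9 for Atp6v0a2 and 42.85 for Tcirg1. In alkaline medium Atp6v0a2 led, with 42.1% and 40.6%, against 34.9% and 37.1% in control medium. Atp6v0a4 never took more than 0.715%.

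The other pairs had a clear main form. Atp6v0e2 took 11.5% and 10.2% of subunit e in proliferating libraries and between 14% and 16.6% in the n-Sen libraries. Atp6v0d2 took at most 1.09% of subunit d. Atp6v1c2 took at most 2.65% of C and Atp6v1g2 at most 1.09% of G. Of the pair Dmxl1 and Dmxl2, the second took 16.6% and 19.8% in proliferating libraries, 29.1% and 31.3% in n-Sen, 27.2% and 28.6% in control medium and in alkaline medium 21.3% and 21.6%. The share of Dmxl2 was therefore highest in untreated n-Sen and nearer its proliferating level in alkaline medium.

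**Figure D5:**
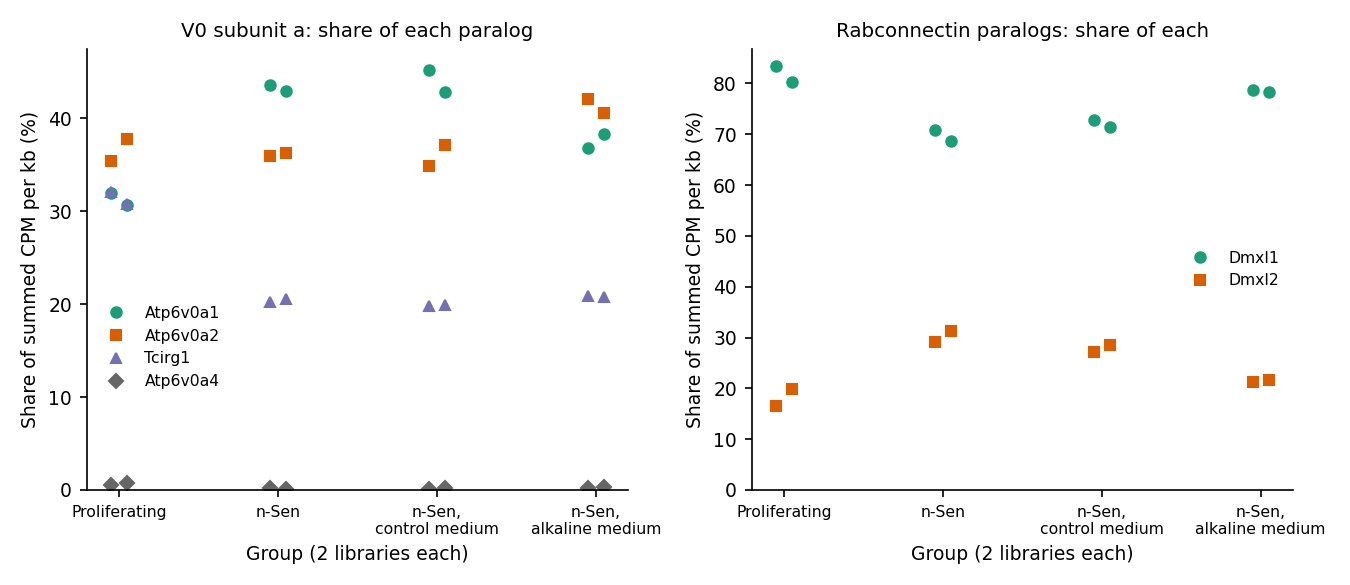
Share of each a isoform in the summed level of subunit a (left) and of Dmxl1 and Dmxl2 in their sum (right), in percent of CPM per kilobase of exon, with 1 symbol per library. Atp6v0a1 rises from 32% and 30.7% in proliferating libraries to 43.6% and 43% in n-Sen while Tcirg1 goes from 32.1% and 30.8% to 20.2% and 20.6%.

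Other genes of the lysosomal membrane were counted from lists chosen by name. Of 14 lysosomal ion channel and counter-ion genes, which move chloride, calcium, sodium or potassium and balance the charge of pumped protons, 10 rose and 3 fell in n-Sen cells (71.4% and 21.4%, against 34% and 33.1% of all genes tested), with a median log2 fold change of 0.58. Tpcn1 (0.70 ± 0.0642), Mcoln3 (4.04 ± 0.377) and Tmem175 (0.997 ± 0.0982) were among those that rose. Mcoln3 was low, at 0.204 ± 0.119 CPM in proliferating and 3.28 ± 0.546 CPM in n-Sen cells (SD, n = 2). The chloride-proton exchangers of the list split: Clcn6 (-1.27 ± 0.0909), Clcn3 (-0.59 ± 0.125) and Clcn5 (-0.20 ± 0.0602) fell, and Clcn4 (0.56 ± 0.061) and Clcn7 (0.60 ± 0.0653), named after their values were seen, rose. In alkaline medium 4 rose, with Clcn5 (0.30 ± 0.0495), Ostm1 (0.22 ± 0.0607) and Mcoln1 (0.24 ± 0.0698) among them, and Mcoln2 (-1.05 ± 0.247), Tpcn2 (-0.44 ± 0.113) and Tmem9 (-0.24 ± 0.0738) fell. These 28.6% and 21.4% stand against 9.58% and 10.4% of all genes tested, and DESeq2 called 2 higher and 2 lower. In control medium against untreated n-Sen 0 of the 14 passed by edgeR and 0 by DESeq2, with 1 higher and 6 lower at an unadjusted p under 0.05.

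Of 17 genes of amino acid sensing at the lysosome, where the V-ATPase meets the Ragulator, the Rag GTPases and the TFE factors, 10 rose and 2 fell in n-Sen cells (58.8% and 11.8%, against 34% and 33.1% of all genes tested). Mitf (1.94 ± 0.162), Rragd (1.72 ± 0.165) and Lamtor2 (0.82 ± 0.087) were among those that rose, and Fnip2 (-0.30 ± 0.0916) and Lamtor5 (-0.32 ± 0.104) fell. In alkaline medium 4 rose, with Fnip1 (0.38 ± 0.0553), Rragc (0.20 ± 0.0464) and Lamtor3 (0.22 ± 0.0596) among them, and Mitf fell (-0.71 ± 0.113), that is 23.5% and 5.88% against 9.58% and 10.4% of all genes tested. Mitf stood at 2.51 ± 0.0533 CPM in proliferating cells, 9.61 ± 0.454 in n-Sen, 15.3 ± 1.15 in control and 9.43 ± 0.551 in alkaline medium (SD, n = 2). In control medium against untreated n-Sen, Mitf rose by 0.67 ± 0.12 on the log2 scale and 4 genes fell, Fnip2 (-0.53 ± 0.0911), Rragc (-0.27 ± 0.0471) and Flcn (-0.39 ± 0.0755) among them, that is 5.88% higher and 23.5% lower against 6.18% and 4.96% of all genes tested.

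A further list held 8 symbols of V-ATPase partners outside the set. Of these, 7 were in the annotation used. The other, Meak7, is a newer symbol of Tldc1, which is on the list, so the list held 7 genes and none was missing. In n-Sen cells 3 of the 4 tested rose (75%), against 34% of all genes tested. These were Oxr1 (1.16 ± 0.061), Tldc1 (0.74 ± 0.13) and Tbc1d24 (0.33 ± 0.0875). In alkaline medium, where 9.58% of all genes tested rose and 10.4% fell, Oxr1 was the 1 of 5 tested that passed. It fell from 135.6 ± 4.34 to 95.2 ± 5.04 CPM (SD, n = 2), a log2 fold change of -0.52 ± 0.0519 (edgeR's quasi-likelihood test, adjusted p = 8.41e-08). Ncoa7 lay lower there as well, at -0.25 ± 0.126, but did not pass (edgeR adjusted p = 0.194). In control medium against untreated n-Sen, 1 of 5 fell, Tbc1d24 (-0.31 ± 0.0862), while 4.96% of all genes tested fell.

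Exons of 12 of the 32 genes overlap those of another annotated gene, Ncoa7, Rnasek, Ccdc115 and Atp6v0a4 on the same strand. How the counting used strand was not given in the sources used here. Atp6v0a2, Atp6v0a4, Atp6v0b, Atp6v1c2, Atp6v1e1, Atp6v1g2, Atp6v1h and Wdr7 overlap a gene on the other strand, and their values may include some reads of that gene. Atp6v1e2 overlaps such a gene too, but had 0 counts in every library.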

How the data were processed

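Per the labels' protocols, libraries were directional (dUTP) and began from polyadenylated RNA. The tools named were fastp 0.23.2, HISAT2 2.1.0, featureCounts (Subread 2.0.2) and DESeq2 1.34.0 on mm10, per the submitters' processing notes. The sources used here do not give the strand setting, the treatment of multi-mapped reads or the annotation release. The authors deposited expected counts (estimated, not always whole): of a library's values above 0, 32.7% to 33.7% were fractional, and 19 of the 32 V-ATPase genes had a fractional count. They were rounded before testing. Symbols, positions and exon lengths came from GENCODE vM21 on GRCm38 (mm10) and matched 54809 of 54838 IDs. Exon length covered all annotated exons of a gene and not only the transcript expressed, so levels per kilobase of different genes depend on that choice.

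The main test was edgeR's quasi-likelihood test (version 4.0.16, R 4.3.3) after filterByExpr and TMM. P-values were adjusted over all genes tested by Benjamini-Hochberg, with a threshold of 0.05. Each deposited table was fitted alone for its own comparison, and the third comparison came from a fit of all 8. The SE is the absolute log2 fold change divided by the square root of F. CPM used TMM sizes over all 8 libraries. A group with 0 counts was set against a floor of 3 counts. DESeq2 1.42.0, other scalings and filters, a replicate block and leaving out each library were alternatives. Every V-ATPase gene is accounted for. Those with a mean of at least 10 CPM or a call are given by library, and at most 3 called genes per direction are named from each other list. The genes and lists were chosen with earlier results of these data known. The procedure was tested on simulated counts.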

Additional observations from a re-analysis of the deposited data

How the results depend on the processing

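The 23 V-ATPase genes that rose in n-Sen cells were called under every alternative run (library totals, RLE factors, DESeq2, no filter, a filter of at least 1 CPM in 2 libraries, the replicate block, all 8 libraries in 1 fit, and each library left out). The 2 that fell there came to 1 with DESeq2 and 1 with the filter of at least 1 CPM in 2 libraries, which leaves Atp6v0a4 untested, and to between 1 and 2 with a library left out. They came to 3 on library totals, where Tcirg1 was also lower (adjusted p = 0.0466). In alkaline medium, 6 of the 9 risers were called under every alternative, and the count ran from 7 to 10 with a library left out. The 2 that fell came to 1 with DESeq2 and 1 in a fit of all 8 libraries, and to between 0 and 1 with a library left out. In control medium against untreated n-Sen, the 4 that fell came to between 1 and 3 with a library left out, and the calls over all genes went from 1250 higher and 1003 lower to between 731 and 816 higher and between 450 and 569 lower. With a library left out, the lone library of its group is assumed to vary like the others, and fewer libraries enter the fit. The causes of the other differences were not tested.

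Replicate numbers did not pair the libraries: deviations of same-numbered libraries correlated at -0.0282, -0.00903 and -0.00318 in the 3 comparisons. With the replicate number as a block, the counts were 23 higher and 2 lower in n-Sen, 9 higher and 2 lower in alkaline medium, and 0 higher and 3 lower in control medium, where Atp6v1b2 had an adjusted p of 0.054.

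Signs were followed in n-Sen against proliferating cells, in alkaline medium, and for the 4 genes called in control medium against untreated n-Sen. The 26 that did not pass there were not checked for sign. Under the alternatives run, log2 fold changes turned sign for 5 of the results followed, none of them called, and each with a library left out. Against proliferating cells, Ccdc115 then ran from -0.101 to 0.0057 and Atp6v1g2 from -0.0469 to 0.278. In alkaline medium Atp6v1c2 ran from -0.77 to 0.676, Ccdc115 from -0.0595 to 0.0262 and Atp6v1h from -0.00789 to 0.0512. The tested V-ATPase genes with the fewest counts were Atp6v0a4, Atp6v0d2, Atp6v1c2 and Atp6v1g2, with no more than 161 counts in any library, and they had the largest standard errors of the tested genes of the set in each of the 3 comparisons.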

Other observations

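The mitochondrial ATP synthase, a related rotary machine that runs the other way and makes ATP, was read in the same libraries. Of its 16 genes, 9 fell and 2 rose in n-Sen against proliferating cells, with a median log2 fold change of -0.30, while 33.1% of all genes tested fell. Atp5a1, the alpha subunit of its head, went from 314.1 ± 7.44 to 197 ± 2.84 CPM (SD, n = 2), a log2 fold change of -0.67 ± 0.0491. Atp5g3, of the proteolipid ring, changed by -0.65 ± 0.0565 and Atp5b, the catalytic subunit, by -0.49 ± 0.043. The 2 that rose were Atp5e (0.19 ± 0.0689) and Atp5h (0.14 ± 0.0584). Summed over the 16 genes, the level was 2842 and 2773 CPM in proliferating libraries and between 1999 and 2174 CPM in the 6 n-Sen libraries, while the V-ATPase sum was higher in all 6 n-Sen libraries than in either proliferating one. In alkaline against control medium 4 of the 16 fell by edgeR's quasi-likelihood test, Atpif1 (-0.33 ± 0.0647), Atp5j2 (-0.19 ± 0.0584) and Atp5l (-0.20 ± 0.0604) among them, while 10.4% of all genes tested fell. DESeq2 called 1 lower. By edgeR 0 rose, against 1 at an unadjusted p under 0.05 and 1 with DESeq2. In control medium against untreated n-Sen 0 passed by edgeR, against 2 lower at an unadjusted p under 0.05 and 2 lower with DESeq2.

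Epithelial markers summed to 71.1 and 63.4 CPM in proliferating libraries and to between 4.22 and 5.67 CPM in the n-Sen libraries, and Krt19 made up most of the first sums. Endothelial markers summed to 25.5 and 21.8 CPM against between 2.92 and 3.63 CPM. That difference was carried by Kdr, at 22.6 ± 2.56 CPM in proliferating and 2.57 ± 0.0291 CPM in n-Sen cells (SD, n = 2), while Pecam1, Cdh5 and Tek had means of at most 0.743 CPM in every group. Osteoclast markers summed to 65.8 and 69.7 CPM in proliferating libraries, 74.9 and 75.8 CPM in n-Sen, 167 and 180.1 CPM in control medium and 223 and 242 CPM in alkaline medium. Nearly all of that sum was Itgb3 and Nfatc1, at 138.7 ± 9.21 and 32.7 ± 1.43 CPM in control and 173.5 ± 10.5 and 55.5 ± 2.68 CPM in alkaline medium (SD, n = 2), and each of the other 6 markers had a mean of at most 1.9 CPM in every group. In alkaline against control medium Itgb3, Nfatc1 and Mmp9 rose, 3 of the 5 markers tested, while 9.58% of all genes tested rose.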
